A study of Neurospora crassa with 22 samples.

Results

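The transcription factors CLR-1 and XLR-1 of the filamentous fungus Neurospora crassa were compared at 4 h on Avicel, a crystalline cellulose, by their ChIP-seq peaks. ChIP-seq sequences the DNA that an antibody pulls down with a tagged protein. The comparison took 6 of the 22 samples of the series, namely 3 peak lists of CLR-1 and 3 of XLR-1. The regions compared were stretches covered by peaks in at least 2 of the 3 lists of a factor on the 7 chromosomes. They numbered 1730 for CLR-1 and 2222 for XLR-1.

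Neurospora crassa feeds on plant cell walls by secreting enzymes that cut cellulose and xylan into sugars. CLR-1 is a zinc cluster factor needed for the cellulase genes and for induction of a second regulator, CLR-2. XLR-1, the counterpart of XlnR and Xyr1 in other fungi, is needed for growth on xylan and xylose and contributes to full cellulase expression.

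Both strains derived from OR74A (FGSC2489) and carried a GFP fusion at the his-3 locus behind the ccg-1 promoter in place of the factor's own promoter. In the CLR-1 strain that locus held p_ccg1::clr1-GFP, the native gene was deleted (deltaclr1::HygR) and the mating type was mat'A'. In the XLR-1 strain it held p_ccg1::xlr1-GFP, and the native gene was deleted likewise (deltaxlr1::HygR). Mycelium grew for 16 h on sucrose, was washed and moved to Avicel, and chromatin was pulled down with an antibody to GFP. The labels give the time as 4 with no unit, which is taken as hours. Nothing in the labels says that the 3 samples of a strain were separate cultures, so the spread between lists may be technical. The tables also do not say which library each list came from. The pulldown from a strain with GFP alone was not analysed here.

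The lists differed in length and depth. The CLR-1 lists held 1910, 1338 and 1957 peaks on the chromosomes, and the XLR-1 lists held 2284, 897 and 6868. The median peak held 205, 39 and 256 tags (sequenced fragments) in the CLR-1 lists and 17, 14 and 56 tags in the XLR-1 lists. CLR-1 peaks were the broader, with median widths of 1681.5, 893.5 and 1533 bp against 621, 606 and 878.5 bp. The size of each library in reads is unknown. Between lists of 1 factor, 54.9% to 85.7% of the peaks of the shorter list overlapped a peak of the other list (6 pairs, median 71.2%). Between a CLR-1 and an XLR-1 list the range was 23.1% to 41.0% (9 pairs, median 32.7%), and the ranges did not overlap. Such shares also depend on how much sequence the peaks cover. This ran from 567217 bp in XLR-1 list 2 to 6733493 bp in XLR-1 list 3. No allowance was made for it, and the contrast was not tested. Fold values below are the authors' own enrichment of each peak over its local background. They describe peaks within a list.

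Genes of cellulose breakdown had CLR-1 regions just upstream of their start codons, and few had an XLR-1 region. A gene was credited with a region whose summit, the highest point, lay inside the gene or within 2000 bp upstream of it. Of 19 cellulose genes, 13 (68.4%) had a CLR-1 region, against 12% of all 9729 protein-coding genes. XLR-1 had 4 of the 19 (21.1%), a share near the 24.4% of all genes. In 10 of the 19 the CLR-1 region stood without one of XLR-1 (5.95% of all genes), in 1 an XLR-1 region stood alone (18.4% of all genes), and 3 had both (6.04% of all genes). The remaining 5 had no region. All CLR-1 summits at the 13 genes lay before the start codon, between 1825 and 238 bp upstream of it, with a median over genes of 482 bp upstream.

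The cellobiohydrolases release cellobiose from the ends of cellulose chains. At cbh-1 (NCU07340, chromosome IV, 4311049 to 4314145) the CLR-1 folds were 28.8, 13.4 and 22.9 in lists 1, 2 and 3, and the summits lay 421, 407 and 318 bp before the start codon. These summits fall within the annotated gene, whose untranslated leader is long. At gh6-2 (NCU09680, chromosome V, 858215 to 859731) the CLR-1 folds were 9.75, 9.22 and 19.0, with summits 309, 294 and 317 bp upstream of the start codon. At gh6-3 (NCU07190, chromosome V, 6293016 to 6295011) they were 26.9, 27.7 and 26.2, with summits 238, 301 and 251 bp upstream. Each of the 3 genes had an XLR-1 peak in list 3 alone, with folds of 10.1, 9.05 and 8.30.

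Endoglucanases cut within cellulose chains. For gh7-1 (NCU05057) the CLR-1 folds were 38.2, 88.0 and 29.0, the highest of any cellulose gene in each of the 3 lists, with summits 478, 496 and 478 bp upstream of the start codon. For gh5-1 (NCU00762) they were 9.20 in list 1 and 6.15 in list 3, both with a summit 482 bp upstream, and list 2 had no peak. A stronger shared region lay farther off, 4492, 4489 and 4515 bp upstream of the gh5-1 start codon in the CLR-1 lists and 4494, 4546 and 4472 bp in XLR-1 lists 1, 2 and 3. XLR-1 list 3 held a further peak 5664 bp upstream. The shared region was credited to neighbouring genes and not to gh5-1, and it was picked out after its values were seen.

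Lytic polysaccharide monooxygenases cleave crystalline cellulose by oxidation and draw electrons from cellobiose dehydrogenase. At gh61-3 (NCU02916) the CLR-1 folds were 23.1, 28.1 and 23.6 and the XLR-1 folds 18.6, 10.5 and 12.8. The best-scored peaks of the factors were at separate places there, since CLR-1 summits lay 517, 580 and 509 bp upstream of the start codon and XLR-1 summits 750, 729 and 749 bp downstream of it. At the cellobiose dehydrogenase gene cdh-1 (NCU00206) the best-scored CLR-1 summits lay 875 and 927 bp upstream in lists 1 and 3 and those of XLR-1 2497 and 2450 bp downstream in lists 1 and 3. XLR-1 list 3 held a second peak there 874 bp upstream, at the CLR-1 site. The gene gh61-2 (NCU07760) was the 1 cellulose gene with an XLR-1 region alone, with folds of 22.7, 16.99 and 10.1 and summits 279, 414 and 843 bp after the start codon. CLR-1 was alone at gh61-1, gh61-4 and gh61-7, with folds of 5.16 to 13.6 in the lists that held a peak.

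β-Glucosidases split cellobiose to glucose. The intracellular enzyme gene gh1-1 (NCU00130, chromosome III, 2730966 to 2733380) was the 1 cellulose gene at which the regions of the factors overlapped. Its CLR-1 folds were 22.3, 27.7 and 20.2 and its XLR-1 folds 28.9, 27.8 and 9.46, in all 6 lists. The median summits lay 1447 bp upstream of the start codon for CLR-1 and 1452 bp upstream for XLR-1, a distance of 5 bp. At gh3-3 (NCU08755), by contrast, CLR-1 had folds of 19.8, 18.9 and 20.9 with summits 898, 887 and 897 bp upstream, and no XLR-1 list held a peak. At gh3-6 (NCU07487) CLR-1 folds were 24.3, 30.4 and 24.1, with summits 1801, 1825 and 1810 bp upstream.

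The longest XLR-1 list put peaks at the cellulase genes too. Of the 10 genes with a CLR-1 region alone, 9 had a peak in XLR-1 list 3 and in no other XLR-1 list, against 62% of all genes with a peak in that list. The best-scored summit came after the start codon in 8 of the 9, by 147 to 2036 bp, and before it at cbh-1, 413 bp upstream. Of all peaks of that list 76.7% had their summit after the start codon of a gene, so the position at these 9 genes was near that of the list as a whole. At cbh-1 this was 6 bp from the median CLR-1 summit. The number of the 19 cellulose genes with a peak was 13, 9 and 15 in the CLR-1 lists and 4, 3 and 16 in the XLR-1 lists. Without CLR-1 list 1 or without CLR-1 list 3 the genes with a CLR-1 region numbered 9, and without any 1 XLR-1 list those with an XLR-1 region numbered 3 or 4. The difference between the factors in these gene counts was not tested.

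**Figure D1:**
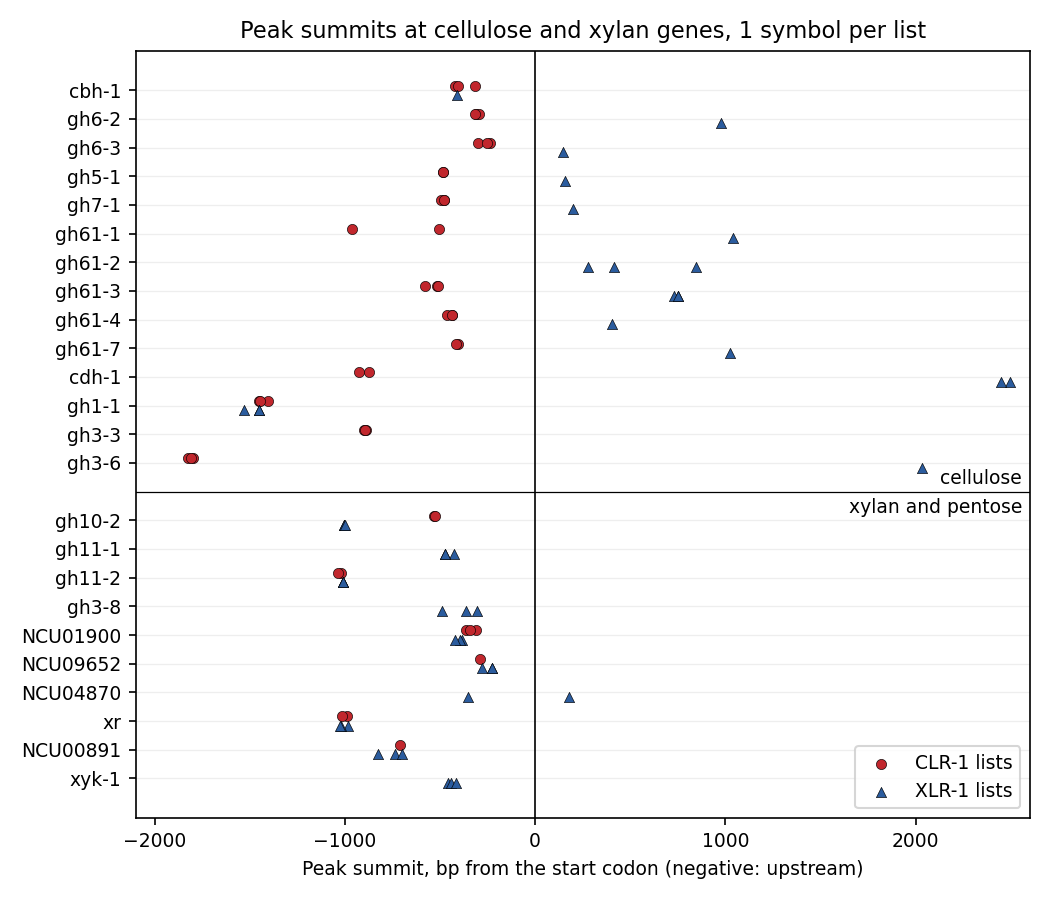
Distance in bp from the start codon (0 on the horizontal axis, negative upstream) of the best-scored peak summit at each cellulose gene (upper block) and each xylan or pentose gene (lower block) that had a region. Each red circle is 1 CLR-1 list and each blue triangle 1 XLR-1 list. CLR-1 summits lie upstream at all 13 cellulose genes that have them, XLR-1 summits, mostly of list 3, lie downstream at most of these genes, and at the xylan genes both factors lie upstream, at 9 of 10 genes in every XLR-1 list with a peak.

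At genes of xylan and pentose use the order of the factors turned around. XLR-1 had a region at 10 of the 14 genes (71.4%, against 24.4% of all genes) and CLR-1 at 4 (28.6%, against 12%). All 4 CLR-1 genes also had an XLR-1 region, and none had a CLR-1 region alone. At 9 of the 10 genes the best-scored XLR-1 summit of every list with a peak lay before the start codon, between 1025 and 226 bp upstream. At 4 of the 10 genes XLR-1 list 3 also had a lower-scored peak after the start codon, with folds of 8.30 to 10.1. The exception was the acetylxylan esterase gene NCU04870, with summits 355 bp upstream in list 1 and 176 bp downstream in list 3.

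The endoxylanases cut the xylan backbone. At gh11-2 (NCU07225) the XLR-1 folds were 96.1, 133.3 and 37.96, and the summits lay 1012 bp upstream of the start codon in all 3 lists. CLR-1 had folds of 14.9 and 9.85 there, in lists 1 and 3, with summits 1019 and 1034 bp upstream. The median summits of the factors were 14.5 bp apart at that gene. At gh10-2 (NCU08189) the XLR-1 folds were 63.2, 85.9 and 22.6 and the CLR-1 folds 4.57 and 5.16, again in lists 1 and 3. Here the regions overlapped but the summits did not coincide, with XLR-1 1007, 1003 and 1001 bp upstream and CLR-1 530 and 525 bp upstream. At gh11-1 (NCU02855) XLR-1 had folds of 20.7, 23.5 and 9.30 and CLR-1 had no peak.

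β-Xylosidases release xylose from short xylan chains. NCU01900 was the 1 gene of this list with peaks in all 6 lists, with XLR-1 folds of 52.6, 74.7 and 49.3 and CLR-1 folds of 17.02, 6.20 and 12.5. Its median summits lay 397 bp upstream of the start codon for XLR-1 and 345 bp for CLR-1. NCU09652 had XLR-1 folds of 43.4, 58.8 and 39.7, and a CLR-1 peak in list 3 alone with a fold of 5.41. The gene gh3-8 (NCU00709) had XLR-1 folds of 11.4, 16.99 and 10.1 and no CLR-1 peak.

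Xylose is taken into central metabolism by a reductase, a dehydrogenase and a kinase in turn, and the genes of these 3 steps differed in their CLR-1 peaks. The xylose reductase gene xr (NCU08384) had XLR-1 folds of 52.6, 71.6 and 24.3, and CLR-1 folds of 9.14 and 7.91 in lists 1 and 3. Its median summits were 19 bp apart. The xylitol dehydrogenase gene NCU00891 had XLR-1 folds of 31.0, 44.4 and 19.4 and 1 CLR-1 peak, in list 1, with a fold of 4.38. The xylulokinase gene xyk-1 (NCU11353, summit on chromosome III at 1247041) had XLR-1 folds of 45.7, 60.9 and 67.5 and no CLR-1 peak in any list. The CLR-1 peaks in this gene list came mainly from lists 1 and 3, since list 2 held a peak at 1 of the 14 genes and lists 1 and 3 at 5 each. Without CLR-1 list 1 or list 3, the 4 genes with a CLR-1 region fell to 1.

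Sugar transporters carry the released sugars into the cell. Of 7 such genes, 3 had a CLR-1 region (42.9%, against 12% of all genes), 2 an XLR-1 region (28.6%, against 24.4%) and 1 both (14.3%, against 6.04%). The XLR-1 count was near the share of all genes. The best-scored CLR-1 peaks at the cellodextrin transporter gene cdt-1 (NCU00801) had folds of 14.9, 21.7 and 18.0. Their summits lay 1006, 2282 and 1000 bp before the start codon in lists 1, 2 and 3. CLR-1 list 2 also had lower-scored peaks there, 1005 bp upstream with a fold of 17.51 and 1159 bp downstream with a fold of 10.14. All 3 CLR-1 lists thus had a peak about 1000 bp upstream. XLR-1 had peaks there in lists 1 and 3, with folds of 12.04 and 8.30, whose summits lay 2186 and 359 bp upstream and made no region. At the other cellodextrin transporter gene, cdt-2 (NCU08114), XLR-1 had folds of 19.6, 18.3 and 13.8, with summits 1664, 1691 and 1655 bp upstream, and CLR-1 a peak in list 2 alone. The stretch between cdt-2 and msh3, a mismatch repair gene, held stronger sites for each factor (next to msh3, described with the best-ranked regions). At the sugar transporter gene NCU05853 both factors had regions that overlapped, with CLR-1 folds of 19.2, 12.5 and 22.1 and XLR-1 folds of 9.03 and 15.5 in lists 1 and 2.

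Regulators of carbon use had regions of both factors at 4 of 9 genes (44.4%, against 6.04% of all genes). At cre-1 (NCU08807), the gene of the carbon catabolite repressor, CLR-1 folds were 13.5, 27.3 and 8.67 and XLR-1 folds 34.1, 37.9 and 11.3. The CLR-1 summits lay 1842, 1888 and 1859 bp upstream of the start codon, and the XLR-1 summits 1847, 1848 and 621 bp upstream in lists 1, 2 and 3. XLR-1 list 3 also had a peak 1834 bp upstream, so all 6 lists had a peak about this site. That peak was number 4 by score of the list 3 peaks at cre-1. Its fold was 7.79, against a median of 8.3 in the list. XLR-1 list 1 had a further peak 633 bp upstream, with a fold of 17.56. Together with the best-scored peak of list 3 it made a separate XLR-1 region, nearer to the gene, where CLR-1 had no region. At col-26 (NCU07788), a regulator of starch use, the median summits were 3.5 bp apart, with CLR-1 folds of 8.21 and 8.15 and XLR-1 folds of 13.4 and 8.30, in lists 1 and 3 of each factor.

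The factors' own genes gave a mixed picture. The clr-2 gene (NCU08042) had a CLR-1 region upstream and no XLR-1 region. The best-scored CLR-1 peaks of lists 1 and 3 had folds of 9.53 and 12.74, with summits 1596 and 1571 bp upstream of the start codon. That of list 2, with a fold of 14.2, had its summit at another place, 2785 bp downstream. At clr-1 (NCU07705, chromosome IV, 2149157 to 2154036) the best CLR-1 peaks had folds of 35.2, 75.1 and 26.7, with summits 3051, 3099 and 3057 bp after the start codon and no XLR-1 peak at that place. The strain carries its clr-1 sequence in the tagged construct and lacks the native gene, and the part of this in the peak was not tested. XLR-1 had peaks upstream of clr-1, 2650, 2659 and 2087 bp from the start codon, with folds of 14.5, 14.4 and 8.30. CLR-1 had weaker peaks before the start codon as well, 476 and 531 bp upstream in lists 1 and 3 with folds of 5.59 and 5.04, and 2752 bp upstream in list 1 with a fold of 3.61. The last overlapped the XLR-1 region, and with the broad peak of CLR-1 list 3, which reached it, made a shared region. The gene clr-3 (NCU05846), a repressor of CLR-1 activity, had CLR-1 folds of 31.3, 38.7 and 27.9 about 1811 bp upstream, and its best-scored XLR-1 peaks came after the start codon, in lists 1 and 3. XLR-1 list 3 held another peak 1746 bp upstream there, with a fold of 8.55. Neither factor had a region at xlr-1.

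The other gene lists gave small counts, to be read against 12% of all genes for CLR-1 and 24.4% for XLR-1. Of 5 mannan and pectin genes CLR-1 had 1, the mannanase gene NCU08412 (folds of 10.8, 7.76 and 12.01), and XLR-1 had 2. Of 4 starch genes CLR-1 had 1 and XLR-1 had 3, and of 4 secretion genes CLR-1 had none and XLR-1 had 1. Of 7 ribosomal protein genes CLR-1 had 1 (14.3%) and XLR-1 had 2 (28.6%), both near the shares of all genes. In lists of this size a count of 1 gene cannot be set apart from those shares. Of 6 highly expressed housekeeping genes CLR-1 had 2 (33.3%), act and gpd-1, and XLR-1 had 1 (16.7%), the tubulin gene Bml. The actin gene act (NCU04173) had CLR-1 peaks in all 3 lists, with folds of 7.34, 8.76 and 11.1, and no XLR-1 peak. At gpd-1 the CLR-1 peaks were in lists 1 and 3, with folds of 3.94 and 5.78. Summits at act lay 1464, 1483 and 1456 bp upstream of the start codon, so a region in this kind of position was not limited to cell wall genes. At his-3 (NCU03139), where the constructs were inserted in both strains, XLR-1 had peaks with folds of 20.7, 15.7 and 10.3 and CLR-1 had none. Neither factor had a region at ccg-1, whose promoter the constructs carry.

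Across the genome most regions belonged to 1 factor. Of the CLR-1 regions 425 (24.6%) overlapped an XLR-1 region by at least 1 bp, and of the XLR-1 regions 448 (20.2%) overlapped a CLR-1 region. Of the shared regions, 194 of 425 for CLR-1 and 188 of 448 for XLR-1 were in all 3 lists of their factor, and of the single-factor regions 383 of 1305 and 392 of 1774. In all 6 lists at once there were 92 shared regions. Of the 1305 CLR-1 regions without an XLR-1 region, 953 touched no XLR-1 peak at all and 352 touched a peak of 1 or 2 XLR-1 lists, in 291 cases of list 3 alone. Of the 1774 XLR-1 regions without a CLR-1 region, 1577 touched no CLR-1 peak, and 1261 rested on XLR-1 lists 1 and 3 without list 2.

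These counts moved with the lists required. Without CLR-1 list 1 or list 3 the CLR-1 regions numbered 739 or 913 and the shared ones 212 or 262. Without XLR-1 list 1 or list 3 the XLR-1 regions numbered 664 or 766, and the shared CLR-1 regions 202 or 299. A region then had to be in both remaining lists, so each count could only fall. Over the 6 lists left out in turn, the shared share ran from 11.7% to 28.7% of CLR-1 regions and from 9.77% to 39.8% of XLR-1 regions. With lists cut to their 897 best-scored peaks, 816 CLR-1 and 733 XLR-1 regions remained, of which 164 CLR-1 regions (20.1%) and 171 XLR-1 regions (23.3%) were shared.

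Counted by genes, CLR-1 had 1167 (12% of all 9729), XLR-1 had 2376 (24.4%), and 588 (6.04%) had regions of both. The common genes were 50.4% of the CLR-1 genes, beside 24.4% of all genes with an XLR-1 region. They were 24.7% of the XLR-1 genes, beside 12% of all genes with a CLR-1 region. These differences were not tested. In 452 of the 588 the regions of the factors overlapped, and in the others they lay apart, as at gh61-3 and cdh-1. No gene was credited by 826 CLR-1 regions (47.7%) and by 151 XLR-1 regions (6.80%). Of these, 26 CLR-1 regions (3.15%) and 24 XLR-1 regions (15.9%) lay beside a gene of unknown strand, which could not be credited from upstream. Leaving out CLR-1 list 1 or 3 reduced the 588 to 280 or 343, and leaving out XLR-1 list 1 or 3 to 276 or 355.

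The best-ranked shared region of all 6 lists lay on chromosome V from 4398933 to 4402956, between gln-1, the glutamine synthetase gene, and NCU06725. Its CLR-1 folds were 38.1, 111.1 and 27.2 and its XLR-1 folds 58.9, 69.3 and 20.1. The median summits were 88 bp apart, and that of CLR-1 lay 3223 bp from gln-1 and 2101 bp from NCU06725, so no gene was credited. The second lay between cdt-2 and msh3 on chromosome I, 320676 to 325166, with CLR-1 folds of 21.1, 21.4 and 19.2 and XLR-1 folds of 58.9, 75.8 and 19.9. In that broad stretch the factors peaked at different places, since the CLR-1 summit was 944 bp nearer to msh3 than that of XLR-1. The upstream region of NCU07749 (chromosome V) had the closest pair of the 10, with median summits 1 bp apart, CLR-1 folds of 23.7, 82.0 and 17.5 and XLR-1 folds of 32.2, 39.4 and 7.58. Of the 10, 2 had their CLR-1 summit inside a gene, 4 in a promoter and 4 elsewhere.

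The best-ranked regions with CLR-1 in 3 lists and no XLR-1 peak were mostly upstream of genes. Of these 10, 6 were in promoters and 2 inside genes, against 21.3% and 9.55% of all 953 CLR-1 regions that touched no XLR-1 peak. Only 281 of the 953 were in all 3 lists, as the 10 were, so list support differs as well as rank. Beside gh3-6, gh3-3 and the clr-1 site the 10 held the promoter of adv-1, a developmental transcription factor gene, with folds of 15.8, 22.8 and 15.5. The class is that of the region and not of the gene. At adv-1 XLR-1 had peaks 2010, 3488 and 1975 bp after the start codon in lists 1, 2 and 3. The 10 also held the stretch between NCU06313 and gpr-4, a G protein-coupled receptor gene, with folds of 18.6, 12.4 and 21.3. Of the 10 best-ranked regions with XLR-1 in 3 lists and no CLR-1 peak, 8 lay inside genes and 1, that of xyk-1, in a promoter. These counts were near the shares of all 1577 XLR-1 regions that touched no CLR-1 peak, 91.2% inside genes and 6.40% in promoters. Of the 1577, 330 were in all 3 lists. The allantoinase gene aln-1 held 1 of the 10, with folds of 20.7, 14.4 and 11.3, and the cell wall protein gene acw-8 another, with folds of 33.1, 10.5 and 15.8. Away from that region, acw-8 had CLR-1 peaks 689 and 598 bp upstream of its start codon in lists 1 and 3. A region near gh16-1 on chromosome V, outside every promoter, had folds of 50.6, 77.1 and 7.29.

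On Avicel, summits of the factors lay at different places with respect to genes. They were inside an annotated gene for 19.7%, 36.2% and 21.4% of the peaks in CLR-1 lists 1, 2 and 3, and for 77.8%, 62.7% and 83.4% in the XLR-1 lists. Among the 100 best-scored peaks the ranges overlapped, as given below, but over all peaks every XLR-1 list was above every CLR-1 list. The means were 25.8% ± 9.06 for CLR-1 and 74.6% ± 10.7 for XLR-1 (SD, n = 3 lists each), a difference of 48.9 percentage points (exact permutation test, two-sided, p = 0.1, adjusted over the 2 position tests p = 0.2). With 3 lists against 3 no p below 0.1 is possible. Genes cover 56.7% of the chromosome sequence. The high in-gene share of XLR-1 was not seen on xylan, where lists 1, 2 and 3 of the same strain had 28.3%, 32.7% and 20.7% of summits inside genes, within the range of the CLR-1 lists on Avicel. The CLR-1 strain on sucrose had 16.5% and 56.9% in its 2 lists, so the share also differed widely between lists of that factor. Sucrose list 2, with the share of 56.9%, had the lower folds, with a median of 2.11 and a highest of 3.92, against 3.275 and 16.99 in list 1. These other carbon sources were not part of the test, and whether the contrast on Avicel belongs to the factors or to these libraries cannot be told apart.

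Promoters, here the 2000 bp upstream of a gene start outside every gene, held 29.0%, 19.8% and 39.3% of the CLR-1 peaks and 13.6%, 22.4% and 12.8% of the XLR-1 peaks. These ranges overlapped, since XLR-1 list 2 exceeded CLR-1 list 2. The means were 29.4% ± 9.75 and 16.3% ± 5.33 (SD, n = 3 lists each), a difference (XLR-1 minus CLR-1) of -13.1 percentage points (exact permutation test, two-sided, p = 0.2, adjusted p = 0.2). This difference was not set apart by the test, since lists of the 2 factors overlapped. With peaks of a fold of at least 5 it was -22.5 points, and with peaks outside gene-free stretches of over 10 kb, a choice made after seeing the data, it was -25.9 points. In both cases the ranges no longer overlapped (exact permutation test, p = 0.1, the smallest possible).

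**Figure D2:**
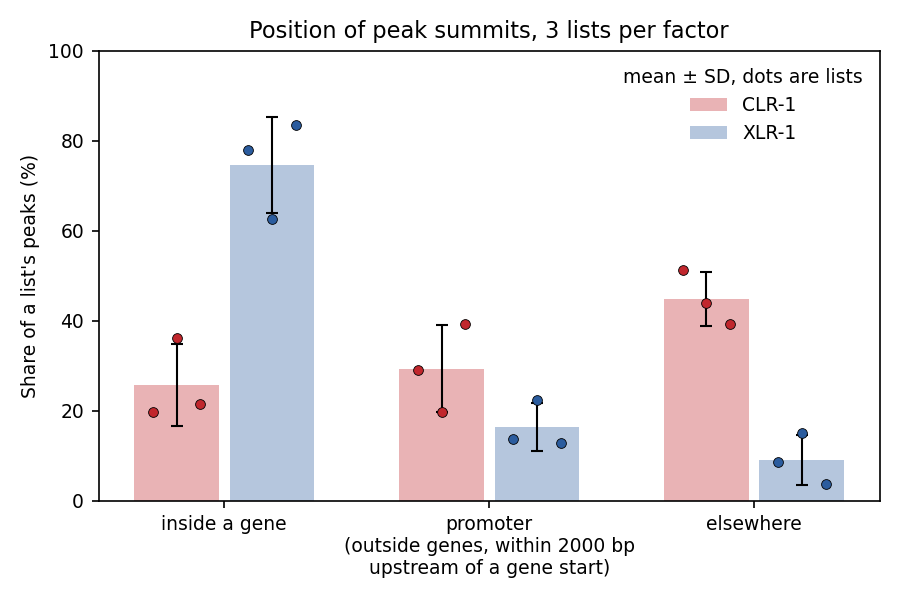
Share of peaks (%, vertical axis) whose summit lay inside a gene, in a promoter or elsewhere. Bars are means of 3 lists, error bars are SD and dots are lists 1, 2 and 3 from left to right, with CLR-1 in red and XLR-1 in blue. The 3 XLR-1 lists (62.7% to 83.4%) lie above the 3 CLR-1 lists (19.7% to 36.2%) inside genes, and the factors overlap in promoters.

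Within XLR-1 the best-scored peaks were placed differently from the rest. Among the 100 best-scored peaks of XLR-1 lists 1, 2 and 3, 48%, 34% and 76% lay inside genes, and below rank 500 it was 79.2%, 71.8% and 83.4%. The promoter share went the other way, with 34%, 40% and 19% among the best 100 and 13.1%, 17.6% and 12.8% below rank 500. In all 3 lists the top of the ranking was thus richer in promoters and poorer in gene bodies than the lower part. XLR-1 lists 1 and 2 had the fewest tags per peak, and the part of depth in this was not tested. Of the 100 best-scored peaks of CLR-1 lists 1, 2 and 3, 30%, 52% and 23% lay inside genes, against 18.1%, 31.4% and 21.2% below rank 500. Among the best 100, XLR-1 list 2 was thus below CLR-1 list 2, and the in-gene ranges of the factors overlapped.

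Shared and single-factor regions were also placed differently. Of the shared regions, 41.2% (CLR-1) and 46.4% (XLR-1) had their summit inside a gene, and 37.6% and 33.7% in a promoter. XLR-1 regions with no CLR-1 region were inside a gene in 88.6% of cases and in a promoter in 7.95%. CLR-1 regions with no XLR-1 region were inside a gene in 15.9%, in a promoter in 27.7% and elsewhere in 56.4%. Read from the other side, 51.7% of the 292 XLR-1 promoter regions were shared with CLR-1, but 11.7% of the 1779 XLR-1 regions inside genes.

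**Figure D3:**
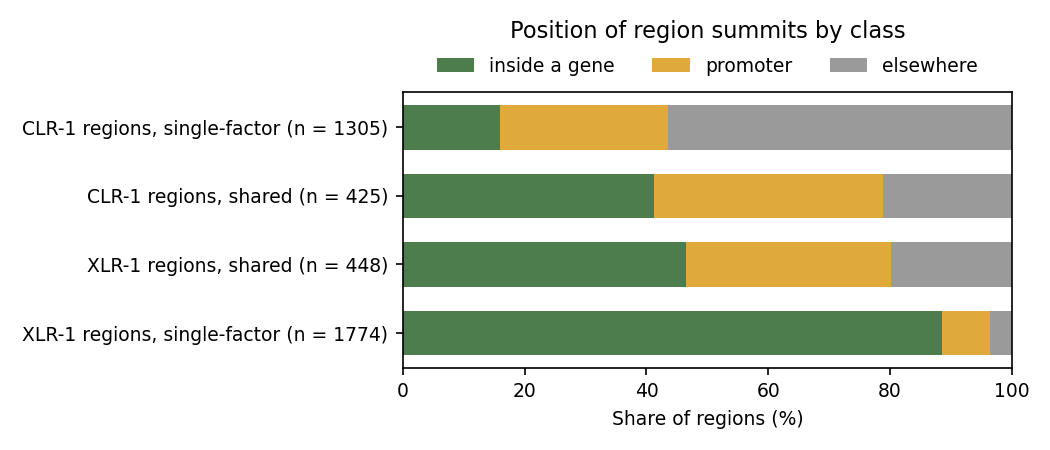
Share of regions (%, horizontal axis) with the summit inside a gene, in a promoter or elsewhere, for shared and single-factor regions of each factor, with the number of regions beside each bar. Single-factor XLR-1 regions are inside genes in 88.6% of cases, single-factor CLR-1 regions elsewhere in 56.4%, and the shared regions have in-gene shares between those of the single-factor classes and promoter shares (37.6% and 33.7%) above both (27.7% and 7.95%).

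Inside genes the factors differed again. The position of the start codon and the strand were recovered from the deposited gene distances for 6845 of the 9729 genes. XLR-1 regions without a CLR-1 region came after the start codon in 92.9% of 1536 in-gene cases, and their median position was 0.48 of the gene's length from its start. CLR-1 regions without an XLR-1 region came before the start codon, within the leader, in 39.9% of 203 cases, and 28.6% lay in the first of 10 equal bins along the gene. For shared regions the share before the start codon was 23.1% for CLR-1 and 20.4% for XLR-1. Counting as in-gene only summits after the start codon, a choice made after seeing the data, left 12.9%, 31.3% and 12.72% of CLR-1 peaks and 72.1%, 56.2% and 76.7% of XLR-1 peaks.

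**Figure D4:**
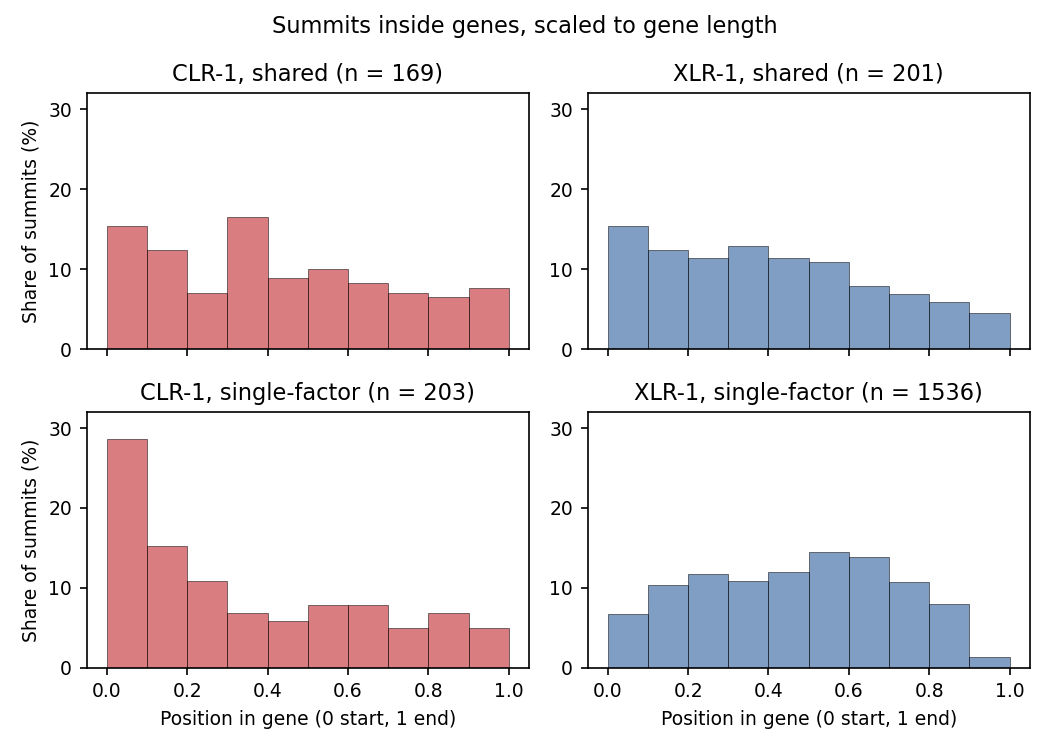
Share of in-gene summits (%, vertical axis) by position along the gene, from its start (0) to its end (1), in 10 equal bins, for regions of genes with known strand. Single-factor CLR-1 regions pile up at the gene start, with 28.6% in the first bin, while single-factor XLR-1 regions are spread over the body, with 6.71% in the first bin and 1.30% in the last.

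A large class of CLR-1 regions lay in long gene-free stretches. Of the 1305 CLR-1 regions without an XLR-1 region, 619 (47.4%) had their summit in a gene-free stretch of over 10 kb, against 37 of the 425 shared ones (8.71%) and 20 of the 1774 XLR-1 regions without CLR-1 (1.13%). Such a stretch is not always far from a gene. Of the 619, 47 lay within 2000 bp of one, and the median distance to the nearest gene was 8285 bp (quartiles 4848 and 19450.5). The single-factor CLR-1 regions were up to 14929 bp wide, with a median of 1430 bp. Such stretches were rarer among the best peaks, with 11%, 12% and 11% of the 100 best-scored peaks of CLR-1 lists 1, 2 and 3 and 48.5%, 42.2% and 36.6% below rank 500. Median folds of the CLR-1 regions with no XLR-1 region were 4.72, 6.40 and 4.99 in the 3 lists, against 8.05, 14.3 and 7.82 for the shared ones. Outside these stretches 388 of 1074 CLR-1 regions (36.1%) were shared with XLR-1, and inside them 37 of 656 (5.64%). Pulldowns from strains with GFP alone were not analysed here, so the background at such stretches was not tested.

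Where the factors shared a region, their summits usually lay close. Over 450 overlapping pairs the median distance was 54.5 bp (quartiles 25 and 311.5), with 46.4% of pairs within 50 bp and 72.7% within 250 bp. For the 94 pairs found in all 6 lists the median was 38.5 bp and 87.2% lay within 250 bp. Lists of 1 factor were closer to each other, with medians of 17.5, 18 and 22 bp between CLR-1 lists and 12, 25.5 and 28 bp between XLR-1 lists. The 9 pairings of a CLR-1 with an XLR-1 list had medians from 41 to 210 bp, all above those 6. The widest, 210 bp, was CLR-1 list 2 against XLR-1 list 3. The medians between factors were thus larger than those between lists of 1 factor, but no test of this was made. The 2 kinds of distance are not on an equal footing. Regions were built where lists of 1 factor overlapped, while regions of the 2 factors needed 1 bp of overlap. The 123 pairs over 250 bp include broad regions with several sites, as between cdt-2 and msh3.

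**Figure D5:**
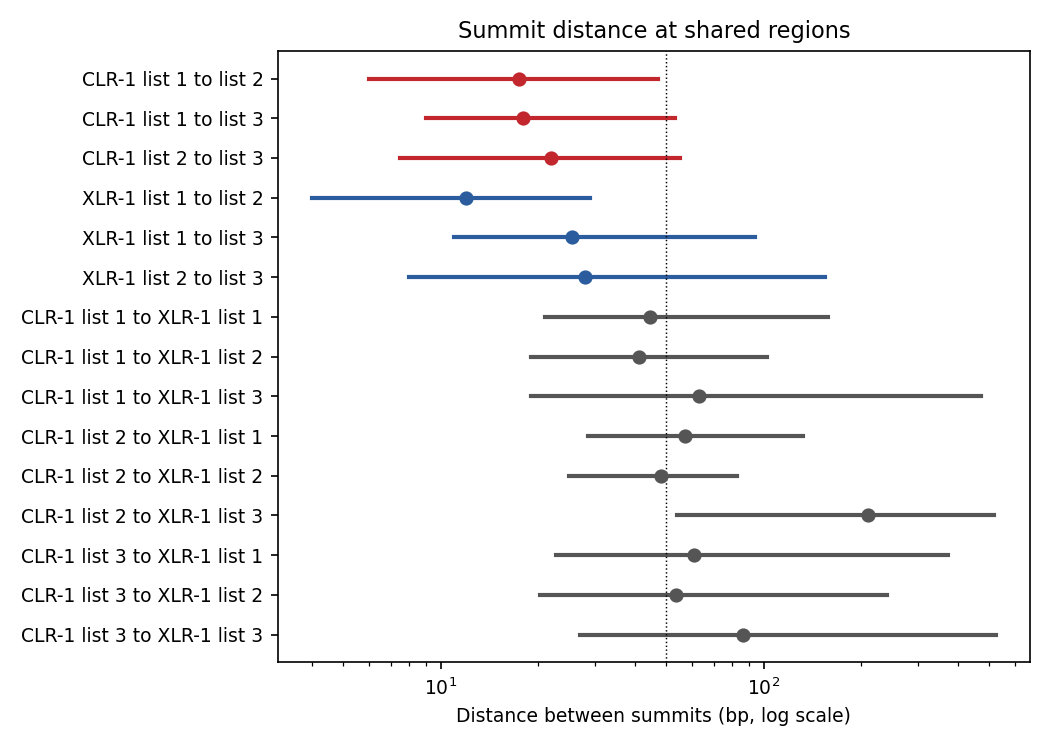
Distance between summits (bp, log scale) at shared regions for each pair of lists, with dots as medians and lines from the lower to the upper quartile. Pairs of CLR-1 lists are red, pairs of XLR-1 lists blue, pairs between factors grey, and the dotted line marks 50 bp. Medians are 12 to 28 bp within a factor and 41 to 210 bp between factors.

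Neither factor took a fixed side. In 129 pairs with the CLR-1 summit in the promoter of 1 gene, the XLR-1 summit was nearer to the gene in 70, farther in 57 and at the same base in 2, with a median of 7 bp nearer (quartiles -38 and 81). Of 174 pairs with the CLR-1 summit in a promoter, the XLR-1 summit was in a promoter in 136, inside a gene in 36 and elsewhere in 2. The median distance was 46 bp in promoters, 52 bp inside genes and 76 bp elsewhere.

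Other samples of the series allowed the classes to be followed to another carbon source or factor. XLR-1 on xylan had 740 regions (3 lists), and these overlapped 49.6% of the shared CLR-1 regions, 48.4% of the shared XLR-1 regions, 7.66% of the single-factor CLR-1 regions and 8.0% of the single-factor XLR-1 regions. Single-factor XLR-1 regions were met on xylan in 31.9% of cases in promoters and 4.26% inside genes. All 10 xylan and pentose genes with an XLR-1 region on Avicel had it on xylan too, as did the 4 with a CLR-1 region.

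CLR-2, the partner regulator of CLR-1, had 2979 regions on Avicel (3 lists, mCherry tag), and these overlapped 12 of the 13 cellulose genes' CLR-1 regions. They also overlapped 49.9% of shared and 56.2% of single-factor CLR-1 regions, and 80.3% of the single-factor CLR-1 regions lying elsewhere than in genes and promoters. Single-factor XLR-1 regions were met in 12.12%. The CLR-2 lists had median folds of 0.5, 2.25 and 1.15 and median scores of 1231.7, 163.2 and 317.3. A median fold below 1 beside a high score in list 1 has no explanation in the sources, so these folds were not read as strength of enrichment. CLR-1 on sucrose, where cellulases are not induced (546 regions, both of 2 lists required), overlapped 33.6% of shared and 24.2% of single-factor CLR-1 regions, and 0.620% of single-factor XLR-1 regions. The CLR-1 regions of cellulose genes were overlapped on sucrose at 6 of 13 genes, and those of the housekeeping genes at 2 of 2. These sucrose regions needed both lists, and the highest fold in sucrose list 2 was 3.92. A strain with V5-tagged CLR-1 on Avicel had 1 list of 1457 peaks and so no replicate, and its label gives no antibody. These peaks overlapped 62.4% of shared and 54.8% of single-factor CLR-1 regions, and 4.28% of single-factor XLR-1 regions. The CLR-1 regions on sucrose come from the same strain as those on Avicel, and the XLR-1 regions on xylan from the same strain as those on Avicel.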

How the data were processed

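Per the submitters' processing notes the aligner was Bowtie2. MACS called the peaks of each list, per the file headers, with the version, settings and control not given in the sources used here. Libraries were amplified by 24 cycles of PCR, per the labels. The authors deposited the tags in each peak as a count, the score as the −log10 of a p-value times 10 and the enrichment as a ratio or fold. Positions, scores and folds come from the authors' call of each list against a background. Total reads are unknown, so depth is given as tags per peak, and no interval was computed. Peak positions, in base pairs, were deposited on the NC12 assembly, and genes came from the RefSeq annotation of that assembly. Peaks outside the 7 chromosomes were left out.

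A region is a stretch covered by peaks of at least 2 of the 3 lists of a factor. Its summit is the median over lists of the summit of the best-scored peak overlapping it. That median fell outside the region itself for 156 CLR-1 and 136 XLR-1 regions. Strand and start codon were recovered from the deposited gene distances, with a tolerance of 3 bp. In 2204 of 2205 genes with both sources the values were equal. Strand stayed unknown for 2884 genes, which could be credited only with a summit inside them, so promoter shares may be too low. Shares of peaks were compared over lists by a two-sided exact permutation test, with p-values adjusted over the 2 tests by the Benjamini-Hochberg method. All other counts were described without a test. Genes named are the members of the 10 gene lists with a region, and the 10 best-ranked regions of each class (shared in all 6 lists, CLR-1 in 3 lists and XLR-1 in none, and the reverse). The members, gene lists and rules were chosen with earlier results of these data known. Alternatives were union clusters, all 3 lists, scores from 100, folds from 5, equally long lists, a stricter overlap, promoters of 1000 and 3000 bp, peak centres, the deposited gene names, and each list left out. Promoter sequences were not used here, so the planned motif search was not run. The region code was tested on simulated data. The tools were scipy 1.17.1, numpy 2.4.6, pandas 2.3.3 and matplotlib 3.10.9 under Python 3.11.15.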

Additional observations from a re-analysis of the deposited data

Results flagged for a closer look

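Peaks outside the 7 chromosomes were not part of any comparison. The CLR-1 lists held 116, 88 and 83 of them and the XLR-1 lists 44, 33 and 36, in lists 1, 2 and 3. These sequences have no gene annotation in the reference used, and the peak-calling control and the GFP pulldown that could set a background were not analysed here.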

How the results depend on the processing

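Depth is known only as tags per peak, and XLR-1 lists 1 and 2, with medians of 17 and 14 tags, were the least covered. CLR-1 regions, XLR-1 regions, shared CLR-1 regions and genes with both factors numbered 649, 590, 92 and 113 when all 3 lists were required, 987, 775, 176 and 233 at a score of at least 100, and 816, 733, 164 and 210 with equally long lists. At a fold of at least 5 the CLR-1 regions fell to 927. Outside gene-free stretches of over 10 kb, an alternative chosen after seeing the data, they numbered 1074, or 1073 when the peaks were filtered first. Leaving out each list in turn gave 739 to 1730 CLR-1 regions, 664 to 2222 XLR-1 regions, 202 to 331 shared CLR-1 regions and 276 to 477 genes with both factors. The cause was not tested, although stricter rules keep fewer peaks by construction. The median summit distance, 54.5 bp, ran from 35 bp (summits within 250 bp required) to 89.5 bp (without XLR-1 list 2). It was 52 bp over pairs whose summits both lay inside their own region, an alternative chosen after seeing the data. The in-gene difference stayed positive, from 36.8 to 54.9 percentage points, and the promoter difference stayed negative, from -25.9 to -8.14, under every alternative run, and in no case could the test reach 0.05. The 100 best-scored peaks of each list were not run as an alternative, and among them the in-gene ranges of the factors overlapped. No paired analysis was possible because the library numbers in the labels are not shared between the CLR-1 and XLR-1 strains.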
